A study of Mus musculus with 35 samples.

Results

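The RNA held by chromatoid bodies (CBs) of control mice was compared with the RNA of control round spermatids (RS), the haploid germ cells in which the mature CB lies. The members were the 4 control CB libraries and the 3 control RS libraries, 7 of the 35 samples in the series. They were taken by their labels and not by any measured value. The wider study deleted Smg6, which codes for an endonuclease of nonsense-mediated decay (NMD), in mouse male germ cells, and sequenced long and small RNA of spermatocytes, RS and CBs. The control mice were adult littermates of mixed C57Bl/6J and SV129 background that carried floxed Smg6 without the Ngn3Cre transgene.

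CBs were recovered from germ cells released from whole testis with collagenase. The cells were fixed with paraformaldehyde and lysed by sonication, and the CBs in the low-speed pellet were bound by an antibody to DDX4. Each CB library pooled 2 to 4 mice and held total RNA, from which ribosomal RNA was not depleted, read as pairs of 150 bases. The crosslinks had been reversed with heat, and the CB libraries were prepared without fragmentation. By the series' own description each RS library came from 1 mouse, while the study's methods describe isolations from more testes. The RS were sedimented through a bovine serum albumin gradient, and their libraries held polyadenylated RNA read as pairs of 75 bases. The cell fraction, the RNA preparation, the read length, the sequencer and the pooling all differ between the 2 groups. The contributions of fraction and preparation to any difference given here therefore cannot be told apart. For the same reason, fewer copies of an RNA per CB and fewer cells contributing it cannot be told apart. The deposited columns number the CB libraries 1, 2, 3 and 5, and these numbers are used here. The column names of CB 1 and CB 5 begin with MCTRL and those of CB 2 and CB 3 with MVHCTRL. The study's text does not explain this difference, and its part in the values was not tested.

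The CB is a large cytoplasmic granule beside the nucleus of the RS, assembled on the RNA helicase DDX4 (mouse vasa homolog) and Tudor domain proteins. It concentrates the PIWI protein PIWIL1 together with long RNAs, PIWI-interacting RNAs (piRNAs) and factors of NMD. Pachytene piRNAs are cut from long single-stranded precursor transcripts that are made in spermatocytes and persist in RS. In RS, many mRNAs for the sperm head and tail are made early and translated only days later.

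With the 45S ribosomal RNA precursor (Rn45s) left out, the CB libraries held 4396537, 3615181, 2508674 and 7684257 gene counts and the RS libraries 45380766, 40414674 and 42390363. Between 12558 and 15074 genes had 10 or more counts in a CB library, and between 16259 and 16470 in an RS library. Spearman's rho over genes was 0.968 to 0.984 between CB libraries, 0.991 to 0.992 between RS libraries and 0.857 to 0.895 between a CB and an RS library. These values describe likeness across genes, which are not independent replicates.

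The ranking of genes was the main readout, because shares of counts move when a single RNA fills a library. Of 24410 gene rows, 16204 had 10 or more counts in at least 3 of the 7 libraries and were given a percentile rank from 0 to 100 within each library. A gene was called when its mean rank differed by at least 20 points at an adjusted p of at most 0.05 in limma. In CBs 1180 genes ranked higher (7.28% of those tested) and 1017 ranked lower (6.28%). By the adjusted p alone, with no threshold on size, 10471 of the 16204 genes passed 0.05. The difference was within 10 points in 9187 genes (56.7%). The higher calls included 962 protein-coding genes, 127 long noncoding RNAs, 27 small nucleolar or Cajal body RNAs, 26 microRNA hairpins and 29 pseudogenes. The lower calls included 862 protein-coding genes and 117 long noncoding RNAs.

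By content, the genes that ranked higher held 11.6% of CB gene counts and 0.944% of RS gene counts, and the genes that ranked lower held 1.28% and 3.83%. Among the tested genes, 177 had under 10 counts in every RS library, passed the filter through CBs and had to differ in level, and 121 of them ranked higher. On the other side, 1129 had under 10 counts in every CB library and passed through RS, and 64 of them ranked lower (5.67%). Of the 15701 genes with 10 or more counts in every RS library, 988 ranked higher (6.29%) and 1017 lower (6.48%). Of the 12112 genes with 10 or more counts in every CB library, 1132 ranked higher (9.35%) and 661 lower (5.46%). A rank is bounded at its upper end, so an RNA already abundant in RS can rise little. The edgeR quasi-likelihood test on the counts was therefore set beside it, with a call at an absolute log2 fold of at least 1.5 and an adjusted p of at most 0.05. It called 2496 genes higher (15.4%) and 2299 lower (14.2%) in CBs. It called 1177 of the 1180 genes that ranked higher, and 883 of the 1017 that ranked lower, in the same direction.

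The edgeR folds are relative to the median gene, whose log2 fold was 0.00 after TMM scaling. Scaled by library size alone, the median gene was 0.72 higher in CBs on the log2 scale, and edgeR called 4819 genes higher and 704 lower. Levels are given as counts per 1000000 gene counts (CPM) with Rn45s left out, which follow the library size scale. They compare a gene between libraries and are not corrected for gene length.

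Ribosomal RNA filled much of the CB libraries and little of the RS libraries. Rn45s, the transcript from which the large ribosomal RNAs are cut, took 27.5%, 24.7%, 38.2% and 26.5% of all gene and element counts in the CB libraries (29.2% ± 6.10, SD, n = 4). In the RS libraries it took 0.0221%, 0.0616% and 0.0314% (0.0384% ± 0.0206, SD, n = 3). The groups did not overlap, and the exact permutation test gave a two-sided p = 0.0286, the smallest that 4 against 3 libraries allow. The libraries of Smg6-cKO mice, made in the same 2 ways, held 23.5% to 35.9% in CBs and 0.0248% to 0.0413% in RS.

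Transposable elements are repeats whose copies lie within introns, untranslated regions and intergenic transcripts as well as in autonomous elements. Their counts made up 42.8%, 50.9%, 44.0% and 37.4% of CB counts without Rn45s (43.8% ± 5.55, SD, n = 4). In RS they made up 4.66%, 4.52% and 4.61% (4.60% ± 0.0719, SD, n = 3). The CB share was 9.52-fold the RS share, with no overlap of the groups (exact permutation test, p = 0.0286). With Rn45s kept in the total, the shares were 31.0% and 4.60%, a 6.75-fold difference. In the Smg6-cKO libraries elements held 38.9% to 50.7% of CB counts and 3.88% to 5.60% of RS counts.

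piRNA precursors were counted in tables of their own. The authors counted reads over 214 precursor regions, and these counts are given per 1000 gene counts of the same library. The 4 CB libraries held 178, 189, 136 and 233 precursor counts per 1000 gene counts (184 ± 39.6, SD, n = 4), and the 3 RS libraries 9.86, 10.5 and 10.1 (10.2 ± 0.332, SD, n = 3). Every CB library lay above every RS library, by 18.1-fold in the means (exact permutation test, p = 0.0286). Against gene and element counts together, the means were 104 and 9.69 per 1000, a 10.8-fold difference. The plot of these 3 measures by library shows the distance between the groups beside the spread within them.

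**Figure D1:**
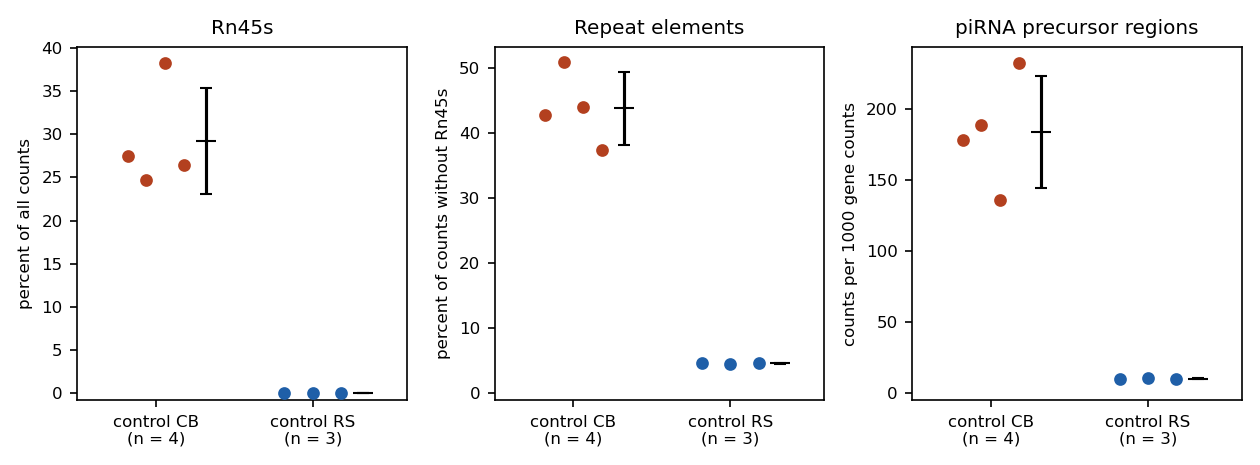
Each point is 1 library, with CB and RS on the horizontal axis and the mean ± SD drawn beside the points. The panels give Rn45s as percent of all counts, elements as percent of counts without Rn45s, and piRNA precursor counts per 1000 gene counts. CB libraries sit at 24.7% to 38.2%, 37.4% to 50.9% and 136 to 233, above all 3 RS libraries in each panel.

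The precursors differed from each other in how far they were above RS. Of the 214 regions, 204 were above every RS library in every CB library (95.3%), 3 were below (1.4%) and 7 overlapped. The median ratio of CB to RS over all regions was 14.9. By name the regions fall into a class called after a chromosome band and a class called after a gene that they cover, written with the prefix pi-. The 100 regions named after a band, with a median length of 24.9 kb, had a median ratio of 48.3, and 33 of them exceeded 100-fold. The 114 regions named after a gene, with a median length of 36.1 kb, had a median ratio of 6.89, and 0 of them exceeded 100-fold.

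The band-named regions summed to 148, 152, 111 and 203 counts per 1000 gene counts in the CB libraries and to 3.79, 4.27 and 3.95 in the RS libraries. Their means were 38.3-fold apart. The gene-named regions summed to 30.5 ± 4.36 (SD, n = 4) in CBs and 6.15 ± 0.0860 (SD, n = 3) in RS, which is 4.97-fold. The make-up of the precursor counts therefore differed too. Band-named regions held 83.0% ± 3.01 (SD, n = 4) of CB precursor counts but 39.4% ± 1.13 (SD, n = 3) of RS precursor counts.

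The region with the largest share of CB precursor counts was 2-qE1-35981, on the plus strand of chr2:92541142-92609144 (mm10). It held 7.78, 7.19, 6.01 and 10.7 counts per 1000 gene counts in the CB libraries and 0.00605, 0.00953 and 0.00804 in the RS libraries, a 1005-fold difference of the means. It took 4.29% of CB precursor counts and 0.0772% of RS precursor counts. The next were 18-qE1-36451 on the minus strand of chr18:67029447-67066460, at 5.52 against 0.0109 (508-fold), and 9-qC-31469 on the minus strand of chr9:67691252-67733786, at 5.28 against 0.0140 (378-fold). All 3 are band-named, and the 4 CB libraries lay above the 3 RS libraries in each.

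The regions with the largest shares in RS were all gene-named and were closer between the groups. The region pi-1700016M24Rik took 8.47% of RS precursor counts and 0.705% of CB precursor counts, at 0.860 and 1.29 counts per 1000 gene counts. The region pi-Luzp1 took 5.81% of RS precursor counts, at 0.589 per 1000 in RS and 0.997 in CBs. The region pi-Ip6k took 4.10%, at 0.416 in RS and 0.700 in CBs. The 3 regions below every RS library were pi-Rplp1, with a CB to RS ratio of 0.297, 17-qC-59 (0.617) and pi-Atxn1l (0.638). They were singled out after their values were seen. Rplp1 codes for a ribosomal stalk protein, and its gene count also ranked lower in CBs, at 33.0 CPM against 115.

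**Figure D2:**
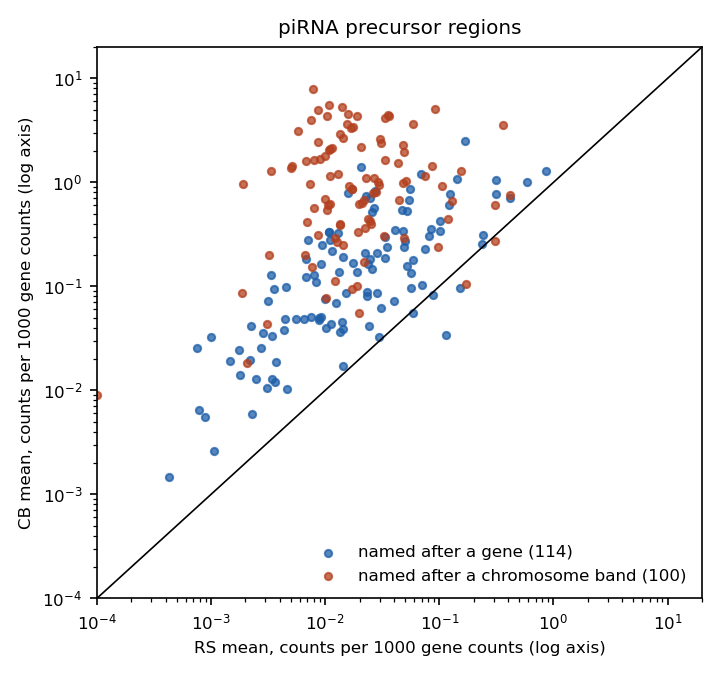
Each point is 1 of 214 piRNA precursor regions, with the RS mean on the horizontal and the CB mean on the vertical axis, in counts per 1000 gene counts on log scales, and the line marks equal values. Band-named regions lie farther above the line than gene-named ones, with median ratios of 48.3 and 6.89. The region 1-qE2-2, with an RS mean under 0.0001, is drawn at the axis edge.

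The gene table holds genes that lie inside these regions. A gene was counted as inside when at least 50% of it lay in a region on the same strand, which placed 170 gene rows, 163 of them tested, in 148 regions. Their gene counts and the region counts share reads, so they are not separate evidence. Of the 145 inside genes with 10 or more counts in every RS library, 50 ranked higher and 1 lower, with a median difference of 12.6 points. Of 15493 such genes outside every region, 934 ranked higher and 1005 lower.

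Within band-named regions, 24 long noncoding RNA genes were tested, all of which had counts in RS, and 17 ranked higher in CBs with a median of 31.5 points. Gm21221, in region 5-qG3-23659, had 152, 145, 100.1 and 248 CPM in CBs and 0.309, 0.619 and 0.613 in RS. It ranked 81.5 points higher (SE 2.84). Gm10619, in region 7-qD2-24830, had 399, 408, 243 and 702 CPM against 1.76, 1.86 and 1.56, and ranked 73.1 points higher (SE 1.54). Both were above RS in all 4 CB libraries by more than the spread within either group. The transcripts 4930444F02Rik, at 494 CPM in CBs and 28.1 in RS, and 1700042G15Rik, at 521 and 52.5, ranked 30.5 and 21.5 points higher. Chst1, a carbohydrate sulfotransferase gene, is a protein-coding gene inside region 2-qE1-35981 and had 84.5 CPM in CBs and 6.80 in RS, with a rank difference of 36.5 points.

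Within gene-named regions, 113 genes had 10 or more counts in every RS library, and 27 ranked higher and 1 lower. Ago2, which codes for an Argonaute protein that binds microRNAs, lies in the region pi-Eif2c2 (an older name of the gene). Its 4 CB values were 177, 178, 118 and 226 CPM and its 3 RS values 5.38, 4.53 and 5.26. It ranked 50.6 points higher (SE 1.85, limma adjusted p = 7.36e-08), and edgeR gave a log2 fold of 4.39 (SE 0.20). In the Smg6-cKO libraries the difference was 46.4 points. Zfp382, a zinc finger gene in the region of its own name, had 87.6 CPM in CBs and 2.93 in RS, and the noncoding Gm5878, likewise, had 449 and 11.9 CPM.

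MicroRNA hairpin genes also lie in the band-named regions. The tests covered 121 of 1183 genes named as microRNAs, 118 of which are hairpins and 3 of which are host genes. Of the 118 hairpins 26 ranked higher and 8 lower, and the host gene Mir17hg ranked higher as well. Of the 26 hairpins, 18 lay inside 12 band-named regions, with mean levels of 6.90 to 64.4 CPM in CBs and 0.0156 to 2.77 CPM in RS. Of the 18 hairpins tested in band-named regions, 16 had under 10 counts in every RS library and passed the filter only through CBs. Among the 79 hairpins with 10 or more counts in every RS library, 4 ranked higher and 8 lower. The count of a hairpin gene is of long RNA reads over the hairpin, and no mature microRNA arm was measured in these libraries.

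RefSeq (GRCm38.p6) held sequences for all 26 hairpins that ranked higher. The mature sequences shown belong to Mir7222 and Mir7241, in the leading regions 2-qE1-35981 and 9-qC-31469, to Mir7230, in region 5-qF-14508, and to Mir6236, the most abundant hairpin gene in CBs. The capitals mark the seed, bases 2 to 8. The 6 sequences carry 6 different seeds. The seeds of the other hairpins that ranked higher were not compared.
mmu-miR-7222-5p: gGCACUUGccaggcucugagcuggacu
mmu-miR-7222-3p: uCCAGGACagugggcaggagcag
mmu-miR-7230-5p: aGACUGCUguuucucugaguggc
mmu-miR-7230-3p: uUGAGUUGagacugucaguaggu
mmu-miR-7241-5p: aCUUGCAUgaguuaauacccacc
mmu-miR-6236: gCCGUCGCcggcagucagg

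The arms of miR-7222 lie on the plus strand at chr2:92594602-92594628 and chr2:92594654-92594676. Those of miR-7230 lie on the minus strand at chr5:113337623-113337645 and chr5:113337590-113337612. The 5p arm of miR-7241 lies on the minus strand at chr9:67727758-67727780, and miR-6236 on the plus strand at chr9:110281353-110281371.

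The gene Mir7222 had 26.4, 36.2, 16.3 and 43.2 CPM in the CB libraries and 0.0881, 0.0495 and 0.0472 in the RS libraries. Over the pooled libraries, 620 counts stood against 8, a ratio of levels of 546 (95% exact interval 275 to 1270, counting error only). Mir7230 had 847 counts against 3, a ratio of 1988 (678 to 9659), and Mir7241 had 851 against 4, a ratio of 1498 (583 to 5511). In all 3 genes the lowest CB library was CB 3, which also held the fewest precursor counts per gene count.

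RNAs made by RNA polymerase III or built into small nuclear ribonucleoproteins were near 0 in RS and plentiful in CBs. As background, these RNAs lack a poly(A) tail. All 6 tested members of the list for them ranked higher, but all 6 had under 10 counts in every RS library and had to differ. Rpph1, the RNA of RNase P, which trims tRNA precursors, had 3356, 2515, 3170 and 1104 CPM in CBs. It had 40283 counts in the CB libraries together and 2 in the RS libraries, a ratio of 141824 (39258 to 1171130, exact 95% interval).

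Rmrp, the RNA of the related RNase MRP, had 23833 counts against 2, and Rnu12, the U12 RNA of the minor spliceosome, had 29844 against 2. Their ratios were 83909 (23226 to 692900) and 105071 (29084 to 867649). Rnu11, which pairs with the 5′ splice site of minor introns, had 43.9, 62.0, 183 and 53.1 CPM in CBs and 3 counts in all RS libraries. The CB levels varied between pools, with CB 3 highest for Rnu12 and Rnu11 and CB 5 lowest for Rpph1. The telomerase RNA Terc was scarcer, at 62 counts against 4 (ratio 109, interval 40.5 to 413), and the vault RNA Vaultrc5 had 137 against 4 (ratio 241, interval 92.1 to 898).

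Small nucleolar and Cajal body RNAs guide the modification of ribosomal and spliceosomal RNAs in the nucleus. Among 119 such genes 38 were tested, and 27 ranked higher and 0 lower, but 32 of the 38 had under 10 counts in every RS library. Their summed level was 891 to 1874 CPM in CBs and 4.21 to 5.09 CPM in RS. Snord15b had 234, 368, 574 and 255 CPM in CBs and 4 counts in all RS libraries, a ratio of 10145 (3960 to 37246). Snord17, with 3001 counts against 7, and Snord15a, with 2502 against 10, had ratios of 3019 and 1762. Of 13 tested host genes, from whose introns such RNAs are cut, 0 were called by limma on ranks, while edgeR called 6 higher and 0 lower, or 9 higher when scaled by library size.

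Long nuclear noncoding RNAs were tested in RS as well, with all 12 above the filter there. Of the 12, 3 ranked higher and 0 lower, and edgeR called 6 higher and 0 lower. Malat1, a nuclear speckle RNA that ends in a triple helix in place of a poly(A) tail, had 7517, 7756, 11345 and 4940 CPM in CBs and 71.2, 60.8 and 78.0 in RS. Its log2 fold was 6.11 (SE 0.33, edgeR adjusted p = 9.82e-09). Its rank rose by 18.9 points, short of the threshold, from an RS mean of 81.1.

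Neat1, the scaffold of paraspeckles, had 592, 445, 838 and 318 CPM in CBs and 9.74, 12.9 and 10.2 in RS. It ranked 45.3 points higher (SE 1.28). Kcnq1ot1, an imprinted antisense transcript, had 872, 979, 715 and 924 CPM against 13.4, 12.2 and 15.1 and ranked 42.7 points higher (SE 1.11, limma adjusted p = 2.46e-08). Meg3, another imprinted RNA, had 26.2, 15.2, 42.3 and 9.24 CPM against 0.220, 0.297 and 0.543, with the widest spread between CB pools relative to its mean among these 4 RNAs. Its CB and RS libraries still did not overlap. Tug1, at 123 and 82.1 CPM, and Xist, at 2.93 and 1.28, were not called by either test.

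**Figure D3:**
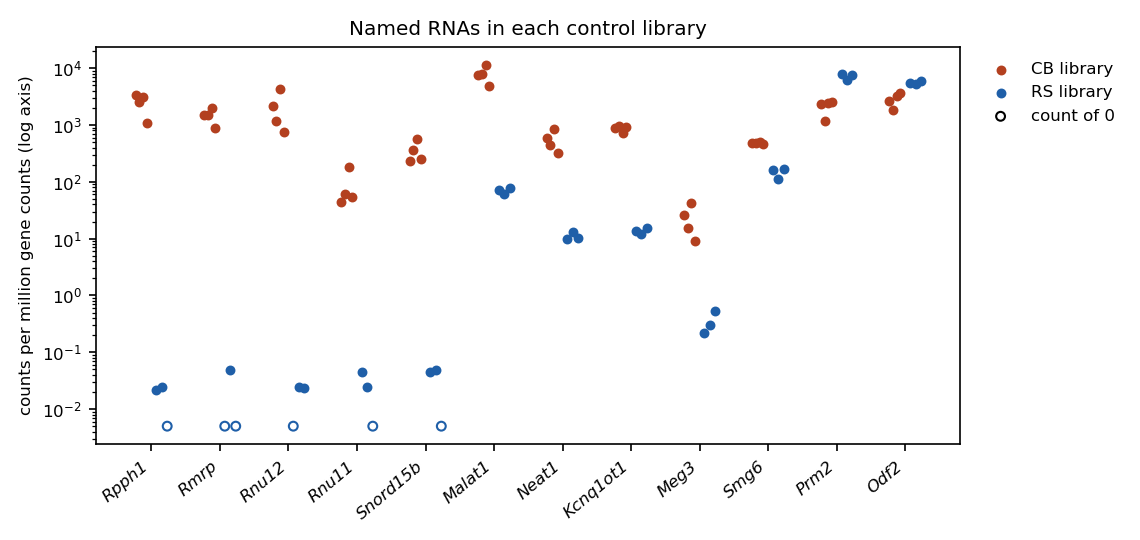
CPM of 12 named RNAs in each CB and RS library, on a log axis, with a hollow mark for a count of 0. Polymerase III, small nuclear and nucleolar RNAs sit near the floor in RS, Malat1 to Meg3 are higher in every CB library, and Prm2 and Odf2 are higher in every RS library.

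Lars2 and Mir6236 were the most abundant genes of the CB libraries after Rn45s. Lars2, which codes for mitochondrial leucyl-tRNA synthetase, had 28878, 55128, 58100 and 29995 CPM in CBs and 63.3, 472 and 106 in RS. Mir6236 had 44706, 23314, 34620 and 14900 CPM in CBs and 6.48, 52.1 and 9.55 in RS. Among the RS libraries, RS 1 was lowest and RS 2 highest for Lars2, for Mir6236 and for Rn45s. Lars2 was called by edgeR (log2 fold 6.97) and not by rank (12.1 points), and Mir6236 by both, at 42.1 points, but not per transcript length (7.37 points). Whether reads of ribosomal RNA were counted in these genes was not tested.

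These genes also set how concentrated the libraries looked. The 10 most abundant genes held 10.1%, 10.3%, 12.9% and 7.16% of CB gene counts and 3.96%, 3.68% and 4.04% of RS gene counts (exact permutation test, p = 0.0571). The 100 most abundant genes held 18.6% in CBs and 17.0% in RS (exact permutation test, p = 0.314). Without Lars2 and Mir6236 the direction of the top 10 turned, at 3.52% ± 0.649 (SD, n = 4) in CBs and 3.90% ± 0.188 (SD, n = 3) in RS (exact permutation test, p = 0.4). The remaining abundant genes of CBs were mostly germ cell mRNAs. Dnah8, an axonemal dynein heavy chain, had 3747, 3882, 3796 and 4889 CPM in CBs and 936, 1581 and 911 in RS. Akap12, an anchor for protein kinase A, overlapped between the groups, at 3686 CPM and 3857 CPM.

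The make-up of the element counts was then compared by class, with each class as percent of element counts. LINEs, which include the L1 retrotransposons, held 42.2%, 38.2%, 44.5% and 37.6% in CBs and 28.3%, 27.6% and 27.6% in RS (40.6% ± 3.30, n = 4, against 27.8% ± 0.407, n = 3; exact permutation test, p = 0.0476 adjusted over 5 classes). LTR elements, which derive from retroviruses, went the other way, at 21.1%, 22.5%, 24.4% and 24.0% against 35.1%, 36.4% and 35.7% (adjusted exact p = 0.0476). SINEs held 29.1% ± 3.80 (n = 4) and 30.5% ± 0.247 (n = 3), and the groups overlapped. DNA elements held 2.58% and 3.42%, with an adjusted exact permutation p = 0.0714. The other elements, which include the 7SK repeats, held 4.67% and 2.51% (adjusted exact p = 0.0476). The 7SK repeats alone held 3.28% and 0.0141% of element counts, so the rest of this class was lower in CBs. As percent of all counts without Rn45s, every class was higher in CBs. The folds were 13.9 for LINEs, 9.13 for SINEs, 7.18 for DNA elements and 6.11 for LTR elements. The other elements were 17.6-fold higher with the 7SK repeats, most of this class in CBs, counted among them.

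Within the LINEs, the L1 family held 39.1% ± 3.53 (SD, n = 4) of CB element counts and 25.7% ± 0.431 (SD, n = 3) of RS element counts, while the ancient L2 family held 1.26% and 1.79%. The LTR families ERVK (8.68% and 13.5%), ERVL (2.05% and 3.36%), ERVL-MaLR (9.86% and 13.6%) and ERV1 (2.35% and 5.19%) were each lower in CBs. None of the groups overlapped in these 6 families. The SINE families Alu, B2 and B4 overlapped, with means of 10.3% and 10.4%, 7.11% and 7.26%, and 9.19% and 8.81%. For Alu the overlap came from CB 3, at 8.57%, and the other 3 CB libraries lay above RS. The SINE family MIR was lower in every CB library, at 1.69% and 2.92%. The 7SK repeats, copies related to a polymerase III RNA that restrains transcription elongation, held 3.70%, 2.38%, 3.85% and 3.18% in CBs and 0.0131%, 0.0148% and 0.0144% in RS. This is a 232-fold difference of shares.

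**Figure D4:**
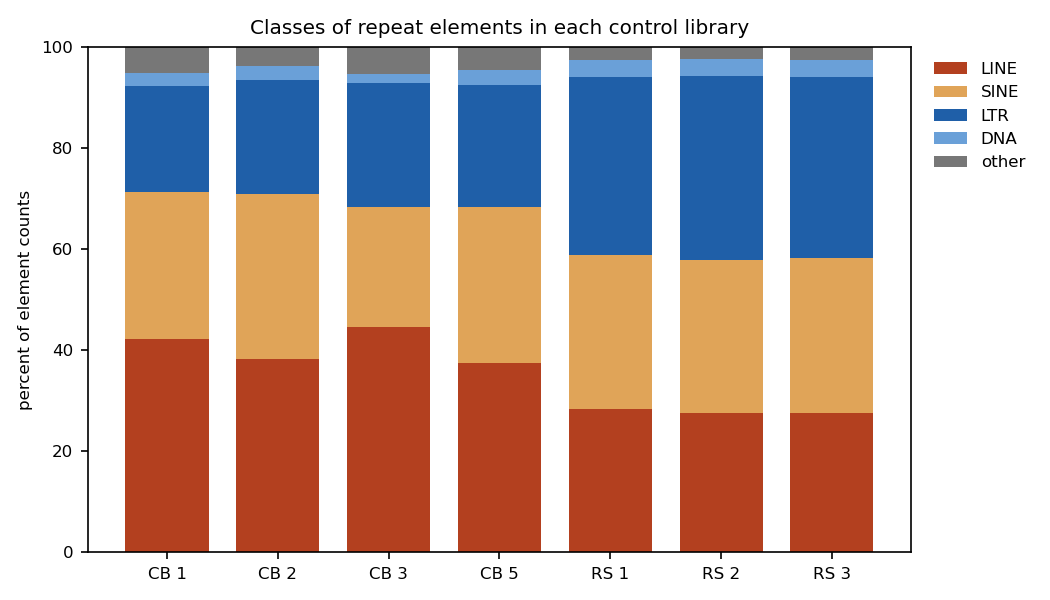
Stacked bars give, for each CB and RS library, the percent of element counts in LINE, SINE, LTR, DNA and other elements. LINEs are larger and LTR elements smaller in all 4 CB libraries, and the SINE share is similar in most libraries, with CB 3 lowest at 23.9%.

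At the level of subfamilies, 1103 of 1146 were tested by their rank among elements. In CBs 21 ranked higher (1.9%) and 35 lower (3.17%). L1 subfamilies, 133 of the 1103 tested, were 9 of the 21 and 0 of the 35. LTR subfamilies, 652 of those tested, were 7 of the 21 and 26 of the 35. By share of element counts, 215 subfamilies were above every RS library in every CB library (19.5%) and 500 were below (45.3%). Of 133 L1 subfamilies 68 were above and 23 below, and of 652 LTR subfamilies 93 were above and 363 below. As a share of gene and element counts together, 1089 of the 1103 had a higher mean in CBs.

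The most abundant subfamily of both groups was L1Md_F2, a mouse L1 subfamily. It held 6.80%, 4.65%, 7.49% and 4.08% in CBs and 3.45%, 3.31% and 3.20% in RS. L1Md_T, a young and active L1 subfamily, held 4.81%, 4.40%, 6.02% and 3.14% in CBs and 2.15%, 2.04% and 1.98% in RS, 2.23-fold in the means. CB 5 was the lowest CB library and CB 3 the highest for both. The SINEs B3 (3.14% and 2.94%) and RSINE1 (2.97% and 2.70%) were abundant in both groups, and in RS both held more than L1Md_T.

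Among the subfamilies that moved most in rank, LTRIS4B held 0.220%, 0.0409%, 0.490% and 0.119% in CBs and 0.00248%, 0.00973% and 0.00444% in RS. It ranked 52.2 points higher (SE 5.26, limma adjusted p = 1.16e-05). GSAT_MM, the mouse major satellite of pericentromeric chromatin, held 0.0126% and 0.000635%, a 19.8-fold difference of shares, and ranked 45.8 points higher. The old L1 subfamilies L1MEg2 and L1M7 were 9.86-fold and 4.31-fold higher in share. The largest falls were in LTRs of endogenous retroviruses, with RLTR9A3A at 0.00416% and 0.0640% (-39.8 points), ERVB7_4-LTR_MM (-37.0 points) RLTR9C at 0.00662% and 0.0895% (-34.5 points) and LTRIS5 (-33.6 points). The DNA element MER58C, at 0.00923% and 0.179%, fell by 34.8 points.

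Protein-coding RNAs of late germ cell stages were abundant in both groups and lower in CBs by fold. In the list of late spermatid genes, limma called 0 of 11 by rank, while edgeR called 0 higher and 10 lower, also when scaled by library size. Prm2, a protamine that packs sperm DNA, had 2332, 1170, 2448 and 2539 CPM in CBs and 7757, 6083 and 7667 in RS. Its log2 fold was -2.47 (SE 0.26, edgeR adjusted p = 1.88e-06), with a rank difference of -0.071 points. Prm1 had 837 and 2713 CPM, and the transition protein genes Tnp1 and Tnp2 had 648 and 2028, and 668 and 2528. Prm3, at 257 CPM in CBs and 184 in RS, was the member that edgeR did not call.

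The same measure was lower for the listed spermatid and tail genes. In the list of 15 spermatid genes edgeR called 0 higher and 13 lower (5 lower when scaled by library size), and 0 were called by rank. Acrv1, an acrosomal protein gene, had 123 and 318 CPM. Of 14 genes for the fibrous sheath and dense fibers of the tail, edgeR called 11 lower, or 7 when scaled by library size. Akap4, the main fibrous sheath protein gene, had 443, 370.1, 653 and 925 CPM in CBs and 2959, 2745 and 3249 in RS (log2 fold -3.03). Odf2, an outer dense fiber gene, had 2633, 1841, 3223 and 3640 CPM against 5555, 5261 and 5847 (log2 fold -1.68).

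Germ cell forms of glycolytic enzymes were lower in CBs as well. EdgeR called 8 of 11 lower and 0 higher, or 7 lower when scaled by library size. The late spermatid, spermatid, tail and glycolysis lists share members, among them Akap4, Gapdhs and Pgk2, so their counts are not separate results. Pgk2, the testis phosphoglycerate kinase gene, had 207 ± 42.4 CPM (SD, n = 4) in CBs and 1263 ± 53.4 CPM (SD, n = 3) in RS, a log2 fold of -3.32. Gapdhs had 557 and 2338 CPM, Ldhc 919 and 3444, and Hk1 1019 and 3036. Fhl4, a testis LIM domain gene and among the 10 most abundant genes of RS, had 359, 381, 385 and 738 CPM in CBs and 3909, 3609 and 3824 in RS (log2 fold -3.73).

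Of 14 genes listed as spermatocyte markers, edgeR called 2 higher and 3 lower, near the shares over all genes of 15.4% and 14.2%. Scaled by library size it called 4 higher and 1 lower. Sycp1 and Sycp2, of the synaptonemal complex, had 349 and 72.4 CPM, and 880 and 149 CPM, in CBs and RS. Ldhc, the cyclin gene Ccnb1 and the heat shock gene Hspa2 were the 3 called lower, with Ccnb1 at 50.4 and 131 CPM. Of the 10 spermatogonia genes, 0 ranked higher and 1, Crabp1, ranked lower. It had under 10 counts in every CB library and passed the filter through RS.

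mRNAs for proteins of the CB and the piRNA pathway differed by member. Of 21 genes, 3 ranked higher and 0 lower, beside 7.28% and 6.28% of all genes. EdgeR called 5 higher and 3 lower, beside 15.4% and 14.2% of all genes. Scaled by library size it called 10 higher and 3 lower, beside 4819 and 704 of all 16204 genes. With the libraries thinned to the same depth, 8 ranked higher, beside 1474 of all 12388 genes ranked there, and with transcript counts summed per gene 2 ranked higher. Tdrd5, a Tudor protein gene of piRNA biogenesis, had 166, 215, 124 and 199 CPM in CBs and 12.2, 18.6 and 13.9 in RS, and ranked 33.5 points higher (SE 1.81). Mov10l1, the helicase gene that feeds precursors into piRNA processing, had 245 and 27.5 CPM and ranked 27.2 points higher, and Tdrd1 had 327 and 44.4 CPM and ranked 22.2 points higher.

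Piwil1, the PIWI gene of pachytene piRNAs, had 687, 673, 489 and 737 CPM in CBs and 61.5, 98.2 and 72.0 in RS. Its log2 fold was 2.35 (SE 0.18), with a rank difference of 17.2 points that missed the threshold. The 3 genes called lower were Mael, at 281 and 1209 CPM (log2 fold -2.82), Gtsf1, at 82.7 and 320 (-2.66), and the helicase gene Ddx25, at 174 and 597 (-2.49). The gene of the protein used to isolate the CBs, Ddx4, had 543 CPM in CBs and 667 in RS and was not called. Tdrd6, at 1233 and 1058 CPM, and Tdrd7, at 309 and 446, were not called either.

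NMD removes mRNAs with early stop codons and many with long 3′ untranslated regions. Of 16 genes of its machinery, 2 ranked higher and 0 lower, and edgeR called 2 higher and 1 lower, beside 15.4% and 14.2% of all genes. Scaled by library size it called 6 higher and 0 lower, beside 4819 and 704 of all 16204 genes. Upf1, the central helicase gene, had 386, 355, 313 and 314 CPM in CBs and 33.8, 40.8 and 30.7 in RS, and ranked 25.8 points higher (SE 0.938, log2 fold 2.57, SE 0.13). Casc3, of the exon junction complex, had 113 and 17.2 CPM and ranked 25.6 points higher. Ncbp1, the large cap-binding subunit gene, had 179 and 446 CPM and a log2 fold of -2.02.

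Smg6 itself had 477, 487, 493 and 460 CPM in CBs and 161, 110 and 168 in RS. Every CB library lay above every RS library. The rank difference was 9.48 points (SE 0.993) and the log2 fold 0.99 (SE 0.16, edgeR adjusted p = 9.17e-05), both short of the sizes set for a call. The gene Upf2 had 343 and 86.7 CPM and Smg1 570 and 193, and neither was called. Among 16 germ cell genes for RNA-binding proteins of translation, edgeR called 0 higher and 2 lower, beside 15.4% and 14.2% of all genes. The 2 were Ybx1 (383 and 978 CPM) and Ybx3 (654 and 1463). Scaled by library size edgeR called 1 higher and 0 lower, beside 4819 and 704 of all 16204 genes.

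Replication-dependent histone mRNAs end in a stem-loop and mostly lack a poly(A) tail. Of 68 such genes 25 were tested, and 21 of these had 10 or more counts in every RS library, where 8 ranked higher and 1 lower. Hist1h2ba, a testis H2B gene, had 151, 128, 110 and 251 CPM in CBs and 0.903, 1.04 and 0.684 in RS. It ranked 74.9 points higher (SE 2.44) in control and 74.2 points higher in Smg6-cKO libraries. The testis linker histone gene Hist1h1t had 122 and 2.66 CPM and ranked 55.4 points higher. Hist1h2bp, at 21.1 and 42.0 CPM, was the 1 that ranked lower, a call lost without CB 3, per transcript length and with transcript counts summed per gene.

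Some genes of the ribosome and the respiratory chain ranked lower in CBs, and most were not called by rank. Of 83 ribosomal protein genes 24 ranked lower and 0 higher, with a median of -15.6 points beside -0.804 for all tested genes. EdgeR called 60 of them lower and 0 higher, or 17 lower and 1 higher when scaled by library size. With the libraries thinned to the same depth, 44 of 80 ranked lower, beside 1515 of all 12388 genes. With transcript counts summed per gene, 15 ranked lower and 1 higher. Summed, the ribosomal protein genes held 3159 to 4722 CPM in CBs and 8719 to 9007 CPM in RS. Rpl39l, a ribosomal protein gene of male germ cells, had 29.1 and 214 CPM. Rpl29 had 15.01, 8.30, 9.17 and 40.1 CPM in CBs and 121, 175 and 177 in RS, and its rank fell by 43.0 points.

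Of 76 nuclear genes of the respiratory chain 22 ranked lower and 0 higher, with a median of -15.7 points. EdgeR called 27 lower, and 8 when scaled by library size. With the libraries thinned to the same depth 36 of 72 ranked lower, and with transcript counts summed per gene 17 of 76 did. Atp5g1, of the ATP synthase, had 11.5 and 45.5 CPM, and Cox5a, of cytochrome oxidase, 37.7 and 145. Of 36 proteasome subunit genes 1 ranked lower, and 0 did without CB 1, without CB 2 or per transcript length. With the libraries thinned to the same depth, 8 of 35 ranked lower and 1 higher, beside 1515 and 1474 of all 12388 genes. EdgeR called 9 lower and 0 higher, or 1 lower and 1 higher when scaled by library size. Ranked per transcript length, 6 of 83 ribosomal genes (7.23%) and 7 of 76 respiratory chain genes (9.21%) were called lower, beside 849 of all 16028 genes (5.3%). Of those 6 and 7 genes, 4 and 6 were also lower by the plain rank.

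Among 351 tested RIKEN clones of the testis series (names such as 1700016M24Rik), 11 ranked higher and 68 lower, with a median of -9.67 points, and per transcript length 12 ranked higher and 28 lower. EdgeR called 21 of them higher and 116 lower, beside 15.4% and 14.2% of all genes. Scaled by library size it called 34 higher and 43 lower, beside 4819 and 704 of all 16204 genes. Of 12 immediate early genes 1 ranked higher, beside 7.28% of all genes. It was Jun, at 33.9 and 5.02 CPM, a call lost with transcript counts summed per gene. Of 14 heat shock protein genes 1 ranked lower, beside 6.28% of all genes. It was the small heat shock gene Hspb1, at 1.75 and 2.91 CPM. Its call was lost without CB 5 and with the libraries thinned to the same depth. EdgeR called 2 heat shock genes higher and 4 lower, beside 15.4% and 14.2% of all genes. Scaled by library size it called 2 of them higher and 1 lower, beside 4819 and 704 of all genes. Of 40 olfactory receptor genes with 10 or more counts in every RS library, 2 ranked higher and 4 lower. Of all genes with such counts, 6.29% ranked higher and 6.48% lower.

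**Figure D5:**
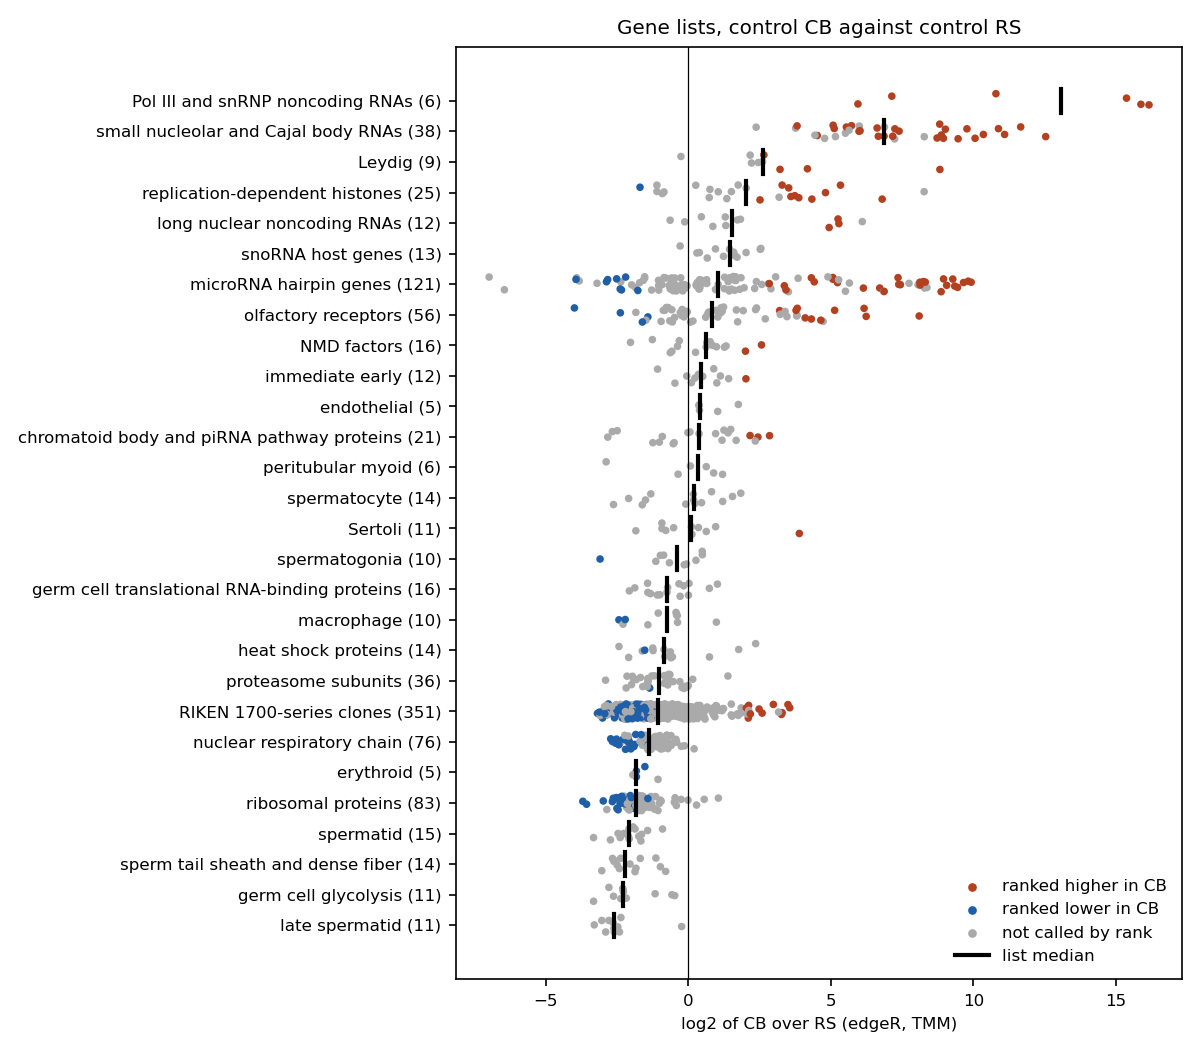
Each point is 1 tested gene of a list, placed by its edgeR log2 fold of CB over RS after TMM scaling and colored by its rank call, with a black bar at the list median. Medians are -2.61, -2.20 and -2.29 for late spermatid, tail and glycolysis genes, and 2.03 and 1.52 for histones and long nuclear RNAs.

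Single genes with the largest rank falls were mostly scarce or absent in CBs. Rd3, named for a protein that regulates guanylate cyclase in the retina, had 1.14, 0, 0 and 0.260 CPM in CBs and 57.3, 123 and 65.2 in RS. It had under 10 counts in every CB library and passed the filter through RS, and its rank fell by 79.7 points in control and by 42.9 points in Smg6-cKO libraries. The iron regulator gene Hfe2 (2.12 and 14.1 CPM), the angiotensin receptor gene Agtr1a (5.86 and 35.3), the spermatid actin-related gene Actrt1 (5.17 and 31.9) and Coa4 (1.85 and 10.98), for a mitochondrial assembly factor, had rank differences of -43.2, -42.9, -42.7 and -41.2 points. On the other side, Gm20199 had 76.0, 112, 51.0 and 53.0 CPM in CBs and 0.110, 0.124 and 0.0944 in RS, and ranked 76.8 points higher. It had under 10 counts in every RS library, passed through CBs and had to differ.

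Rank moved with transcript length. Of 14634 protein-coding genes split into 5 equal groups by length, the group with the shortest transcripts (median 1144 nucleotides) had a median difference of -7.35 points, with 3.32% ranked higher and 15% lower. The groups between had medians of -2.43, -0.405 and 1.32 points. The group with the longest transcripts (median 6422 nucleotides) had a median of 4.55 points, with 11.7% ranked higher and 1.40% lower. Among genes of middle abundance in RS, the shortest and longest groups had medians of -9.9997 and 7.29 points. Across genes, Spearman's rho of the difference was 0.344 with transcript length and 0.200 with the length of the 3′ untranslated region. Ranked per transcript length, 1036 genes were called higher and 849 lower. The part that length plays in the gene lists was not tested.

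Markers of other testis cells differed between the groups for some cell types. Of 9 tested Leydig genes 4 ranked higher and 0 lower, and of the 6 with 10 or more counts in every RS library, 2 ranked higher. EdgeR called 8 of the 9 higher and 0 lower, with a median log2 fold of 2.61. Their summed level was 64.5 to 145 CPM in CBs, 21.6 to 25.5 in RS and 377 on average in the control spermatocyte libraries of the series. Star, which moves cholesterol into mitochondria for steroid synthesis, had 12.3, 13.3, 20.7 and 17.3 CPM in CBs and 1.15, 0.594 and 1.32 in RS. Without CB 3 the number that ranked higher was 2, and without CB 2 it was 6.

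Of 11 Sertoli genes 1, Amh, ranked higher, and it did not without CB 2. It had under 10 counts in every RS library and had to differ. Summed, the Sertoli genes held 62.5 to 90.1 CPM in CBs and 53.7 to 70.0 in RS. Of 10 macrophage genes 2, C1qb and Lyz2, ranked lower, and the list summed to 24.6 to 37.5 CPM in CBs and 26.4 to 38.4 in RS. Of 5 erythroid genes 3 ranked lower, or 2 without CB 2, with summed levels of 7.96 to 13.2 CPM in CBs and 16.6 to 19.3 in RS. None of 6 peritubular myoid and 5 endothelial genes were called by rank. The myoid genes summed to 76.3 to 119 CPM in CBs and 299 to 347 in RS, most of it Actg2, a smooth muscle actin gene (70.3 and 318 CPM). The endothelial genes summed to 52.2 to 58.9 CPM in CBs and 18.3 to 27.5 in RS. EdgeR called 1 myoid gene, Actg2, lower and 1 endothelial gene higher, and scaled by library size it called 2 myoid genes higher and 1 lower and 2 endothelial genes higher. It called 1 Sertoli gene higher and 1 lower, 0 macrophage genes higher and 3 lower, and 0 erythroid genes higher and 4 lower. Scaled by library size, these calls were 2 higher and 0 lower, 1 and 1, and 0 and 0. The table held 0 genes encoded by mitochondrial DNA. The part of other cells in the differences between CBs and RS was not tested.

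The same comparison was made in the 3 CB and 3 RS libraries of mice whose germ cells lack Smg6, some values of which are given above. There 1230 of 17158 genes ranked higher in CBs (7.17%) and 1223 ranked lower (7.13%). Of the 1180 genes that ranked higher in control CBs, 671 were called higher there (56.9%, and 54.6% of the cKO calls) and 0 were called lower. Of the 1017 that ranked lower in control CBs, 554 were called lower (54.5%, and 45.3% of the cKO calls) and 0 higher. These libraries differ between CBs and RS in the same preparation, read length and pooling. Some gene lists differed there from control. Of the CB and piRNA pathway genes 0 ranked higher and 1 lower, and of the Leydig genes 0 were called. Of the Sertoli genes 0 ranked higher and 5 lower, and of the macrophage genes 0 and 7. Of the small nucleolar and Cajal body RNAs 25 ranked higher and 0 lower, and of the ribosomal protein genes 0 and 25.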

How the data were processed

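The authors deposited a table of counts per gene and per element subfamily made with TEtranscripts (STAR alignment to mm10, reverse-stranded counting), and piRNA precursor and transcript tables of expected counts, in which featureCounts 2.0.1 split reads that map to several places. The submitters' processing notes name STAR 2.7.1a, cutadapt 2.8 and HISAT2 2.1.0. In the element and precursor tables the RS columns are marked as trimmed and the CB columns are not, while in the transcript tables both are. The CB columns were tied to the group and not to single mice, and 15 columns of other samples were not used. The authors tested their own comparisons with DESeq2.

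From the deposited counts, Rn45s was left out, genes reaching 10 counts in 3 or more of the 7 libraries were ranked within each library, and ranks were compared with limma 3.58.1 (R 4.3.3). Counts were tested with the quasi-likelihood test of edgeR 4.0.16 (TMM), and DESeq2 1.42.0 was an alternative. P-values were adjusted by Benjamini-Hochberg over all features tested. Shares were compared with a two-sided exact permutation test over libraries, in which the smallest p is 0.0286. Intervals cover counting error only. CB libraries are separate pools and RS libraries separate isolations, so the p-values measure the spread between these. The scripts were tested on simulated counts. Ensembl names of 16028 tested genes (98.9%) matched GENCODE, which gave lengths and biotypes. Genes were named as members of the lists, the 10 most abundant and the 10 largest rank differences in each direction, with subfamilies and precursors likewise. Genes inside precursors were named as examples after their values were seen. The libraries and gene lists were chosen with earlier results of these data known. Alternatives were other filters, scalings, thresholds, depths, per-length ranks, a replicate block and leaving out each library.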

Additional observations from a re-analysis of the deposited data

Results flagged for a closer look

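Of 82 groups of 4 CB values tested for a value that stands apart (the gap to the nearest library as a fraction of the whole range, against the 95% critical value of Dixon), 6 were above it, where chance gives about 1 in 20. Dnah8 (0.882) and Fhl4 (0.929) were highest in CB 5. Prm2 (0.849) was lowest in CB 2, and Rnu11 (0.870) was highest in CB 3. The Alu family share of element counts (0.851) was lowest in CB 3, at 8.57% where the other 3 held 10.7% to 11.02%. The share of RLTR9C (0.918) was highest in CB 5, at 0.00879%. In each of the 4 genes and in RLTR9C the libraries of CB and RS did not overlap, with or without that library.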

How the results depend on the processing

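Leaving out 1 library at a time moved the difference in Rn45s percent of all counts between 26.2 and 30.7 points, in element share between 36.8 and 41.3 points, and in piRNA precursor counts per 1000 gene counts between 157.6 and 189.8. With 1 library fewer the exact permutation test cannot go below 0.1 or 0.0667, so it then misses 0.05 by construction. The share of the 10 most abundant genes turned from higher to lower in CBs without Lars2 and Mir6236 (a difference of -0.374 points, exact permutation p = 0.4), a choice made after the data were seen. The genes ranked higher in CB and the genes ranked lower in CB numbered 770 and 476 when genes with 1 count in any library were ranked, 1857 and 1527 of 19584 genes with transcript counts summed per gene (906 and 1090 among the 15547 of them also tested on gene counts), 3370 and 3552 at a threshold of 10 points, and 355 and 145 at 30 points. Scaled by library size alone, edgeR called 4819 genes higher and 704 lower, and DESeq2 2543 and 2228. Element subfamilies ranked together with genes gave 674 higher and 0 lower by limma. Leaving out 1 library gave 1144 to 1245 genes ranked higher and 971 to 1137 lower. No source used here says that a replicate number marks a shared mouse, and the correlation of same-numbered deviations ran from -0.0255 to 0.0557. With the replicate block on libraries 1 to 3, 1246 genes ranked higher and 1140 lower, edgeR called 2624 and 2406, elements 20 and 37, and the cKO libraries, on libraries 2 and 3, 1415 and 1391. Of 3 CB libraries, 2 correlated best with their own number. Of 59 named genes under 16 alternatives, 5 of which could not rank every gene, 0 of those called turned in direction, 14 lost a rank call in at least 1 alternative, and Malat1 gained one in 3. Depth limits the scarce RNAs, since CB libraries held fewer gene counts than RS libraries.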
